A study of Mus musculus with 6 samples.

Results

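Ribosome biogenesis and nucleolar genes were read in the RNA-seq libraries of WT and Rnf20 knockout reprogrammable cells. The list holds 40 genes that are well known to be driven by MYC, taken by gene symbol from the count table, and all 40 were found among its 16982 genes. RNF20 is an E3 ligase that attaches a single ubiquitin to histone H2B, and the study asked what its loss does to the first steps of reprogramming. The cells were mouse embryonic fibroblasts (MEF) of C57BL/6 background, and RNA was taken at day 3 of reprogramming with OCT4, SOX2, KLF4 and C-MYC (OSKM), with 3 libraries for each genotype. Both genotypes received the retroviral OSKM vectors.

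The knockout (Rnf20-/-) cells came from Rnf20 Flox/Flox; Tamoxifen-cre embryos, in which loxP sites flank exons of Rnf20 and 4-OH tamoxifen switches on a Cre recombinase that is not tied to 1 cell type. The study's methods give the drug for the knockout, while the labels list all 6 libraries as untreated, and whether the WT (Rnf20+/+) cells received it is not given in the sources used here. The methods also plate infected cells on mitomycin-C-treated MEF feeder layers, and whether feeder RNA is in these libraries was not tested. Nothing in the sources says that the 3 libraries of a genotype came from separate cultures or embryos, so p-values measure only the spread between these libraries. In bulk RNA, fewer cells of a type and less RNA per cell cannot be told apart.

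Ribosomes are assembled in the nucleolus. RNA polymerase I transcribes the ribosomal DNA repeats, small nucleolar ribonucleoproteins (snoRNPs) guide the chemical modification and the cutting of the long precursor RNA, and assembly factors, helicases and chaperones fold the pieces into the small and the large subunit. MYC, one of the delivered factors, is known to raise many genes of this pathway through E-boxes, and dividing fibroblasts need a steady supply of ribosomes.

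The libraries held 20545442 to 21746898 counts, of which the 40 genes took 0.439% to 0.561%. Rnf20 itself (chr4:49632006-49656887, plus strand, GRCm38) was at 107, 107 and 106 CPM (counts scaled to a common library total) in WT replicates 1 to 3 and at 18.7, 18.5 and 16.4 CPM in knockout replicates 1 to 3. Its log2 fold change was -2.57 (edgeR, adjusted p = 0.000163), and it was lower in every knockout library. Knockout replicate 3 stood apart from the other knockout libraries, with a chi-square per gene of 92.4 and 101 against them, where the other pairs within a genotype lay between 6.04 and 8.92. Among proliferation markers, 13 of 13 fell, and their summed level was 1858 to 1903 CPM in WT but 826, 726 and 309 CPM in knockout replicates 1 to 3. Fibroblast markers summed to 27499 to 29843 CPM in WT and to 26974, 33672 and 17956 CPM in the knockout, and 1 of 9 fell (Thy1) and none rose. Macrophage markers summed to 49.97 to 105 CPM in WT and to 84.0, 51.8 and 229 CPM in the knockout, with 0 of 7 past the test. Endothelial markers summed to 48.3 to 59.0 CPM in WT and 32.3 to 66.9 CPM in the knockout, nearly all of it Tek, with Emcn, Cdh5 and Pecam1 at or near 0 and 0 of 2 tested past the test, and pluripotent cell markers to 0.476 to 2.28 CPM over all 6 libraries, with 0 of 1 tested past it. No count of the Y-linked gene Ddx3y (0) was found in knockout replicate 1 or 3, while the remaining libraries lay at 94.4 to 128 CPM. The knockout libraries were therefore not all of 1 cell population. Every WT library held Ddx3y, so this difference cannot be fully told apart from genotype for any of the 40 genes. Its part in their values was not tested. Of the 40 genes, Dkc1 is the one on the X chromosome.

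Most of the 40 genes did not pass the test, as was so for all genes tested, and those past it mostly fell. Genotypes were compared by the quasi-likelihood test of edgeR, and p-values throughout are Benjamini-Hochberg adjusted over the 13386 genes that passed a filter on low counts, and all 40 passed that filter. At an adjusted p under 0.05 and any fold, 11 genes (27.5%) were downregulated and 3 (7.5%) were upregulated in Rnf20 knockout cells, and 26 did not pass. Over all genes tested, 16.6% were called lower and 16.4% higher by the same rule, and 8973 of the 13386 did not pass. The genes called lower were Ubtf, Dkc1, Polr1b, Polr1c, Rrp1b, Rrs1, Npm3, Nop56, Fbl, Gnl3 and Nob1, and the genes called higher were Bop1, Rrn3 and Bysl. All 3 knockout libraries lay under all 3 WT libraries in 14 of the 40 genes, the 11 called lower with Tsr1, Nolc1 and Ncl, against 28.2% of all genes tested, and above them in the 3 called higher, against 26.6%. Neither the list as a whole nor its role groups, which hold 3 to 12 genes each, were tested against other genes. Counts of the role groups given below are to be read beside the shares of 16.6% lower and 16.4% higher.

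The changes were small. The median log2 fold change (knockout over WT) was -0.081 over the 40 genes and -0.00032 over all genes tested, with a range over the 40 from -0.83 for Ubtf to 0.52 for Bop1. The median of the absolute log2 fold change was 0.144 for the 40 genes against 0.316 over all genes, and 24 of the 40 lay under 0.25 in size. All genes ranged from -6.71 to 10.2 and were not matched to the 40 in expression level. The part of expression level in this gap was not tested. Of the 26 genes that did not pass, 21 had a 95% interval that stayed within 0.5 of no change on the log2 scale. At the study's thresholds (adjusted p under 0.01, a change of more than 1 on the log2 scale, and in WT or knockout an FPKM, a level per length, of more than 1), 0 of the 40 genes were called in either direction by edgeR or by DESeq2, against 2.08% lower and 1.5% higher over all genes, while at an unadjusted p under 0.05 edgeR gave 12 lower and 3 higher (background 23% and 22.5%). With the stricter adjusted p of 0.01 and no limit on fold, 2 genes were lower (Ubtf and Polr1c, background 4.89%) and 2 were higher (Rrn3 and Bop1, background 4.98%).

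**Figure D1:**
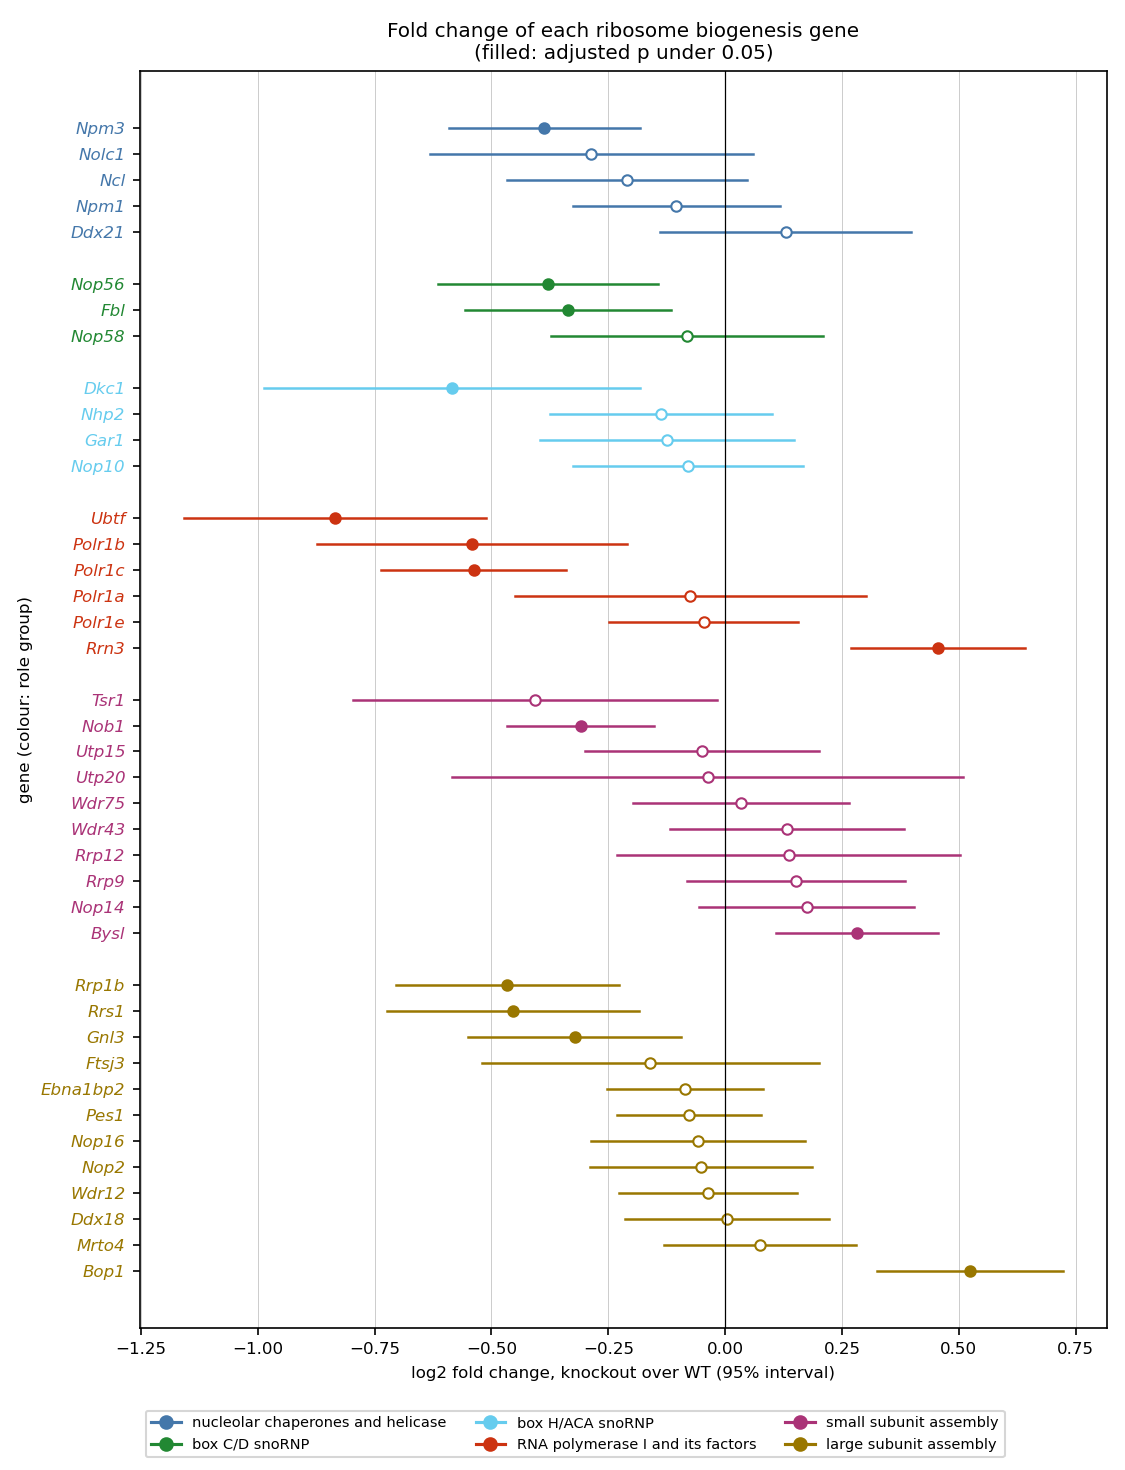
Log2 fold change of each of the 40 genes, knockout over WT (x axis), with its 95% interval as a line, grouped by role on the y axis; filled points passed at an adjusted p under 0.05. The filled points hold 11 genes left of 0, with Ubtf at -0.83 farthest out, and 3 right of it, Bop1, Rrn3 and Bysl.

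The downward shift was largest in knockout replicate 3. The median difference from the WT mean, in log2 CPM, was -0.037, -0.034 and -0.25 in knockout replicates 1 to 3, and -0.062, 0.038 and 0.033 in the WT replicates. In 27 of the 40 genes (67.5%) knockout replicate 3 was the lowest of the 6 libraries, against 34% of all genes tested. The medians of the other knockout libraries lay within the range of the WT medians, and knockout replicate 3 also had the lowest sum of proliferation markers. The part of proliferation in these values was not tested.

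Leaving out knockout replicate 3 kept all 11 lower and all 3 higher calls and added Npm1 and Tsr1 to the lower and Ddx21, Nop14, Rrp12, Utp20 and Wdr43 to the higher genes, for 13 lower and 8 higher (background 24.2% and 23.9%). Leaving out WT replicate 1, 2 or 3 left 5, 2 and 2 lower genes (background 7.31%, 6.13% and 5.17%) and 2 higher genes each time (background 7.01%, 5.75% and 5.11%). Leaving out knockout replicate 1 left 9 lower and 3 higher (background 13.4% and 14.2%), and leaving out knockout replicate 2 left 7 and 2 (background 11.6% and 12.4%). Of the 14 called genes, 4 passed in all 6 fits with a library left out: Ubtf, Polr1c, Rrn3 and Bop1. Each came near the limit in at least 1 fit, with a highest adjusted p (edgeR) of 0.0425, 0.0395, 0.0499 and 0.0418 in that order.

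**Figure D2:**
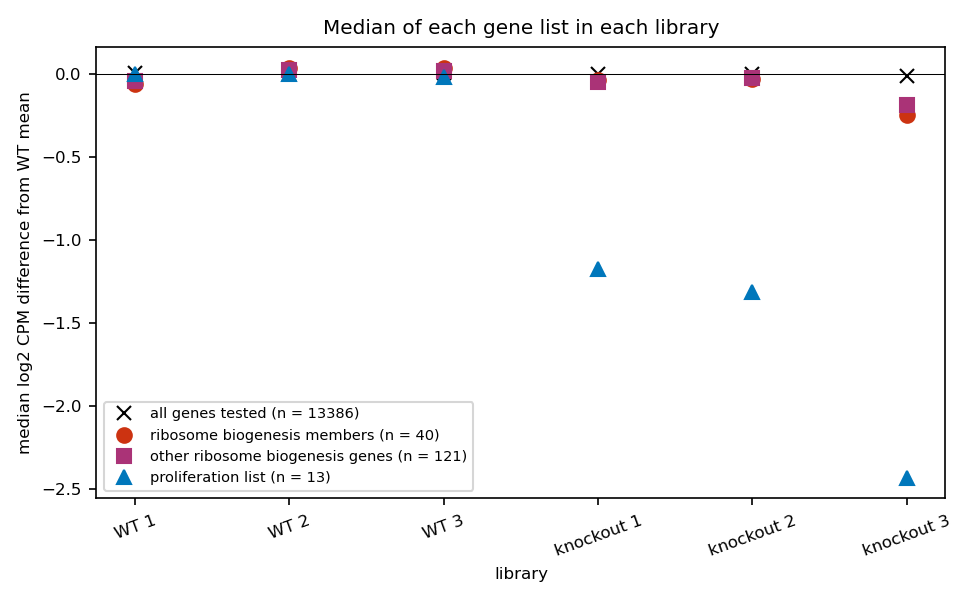
Median log2 CPM difference from the WT mean (y axis) in each of the 6 libraries (x axis) for all genes tested (crosses), the 40 ribosome biogenesis genes (circles), 121 other genes of the pathway (squares) and 13 proliferation markers (triangles). The 40 genes lie at -0.037 and -0.034 in knockout replicates 1 and 2 and at -0.25 in knockout replicate 3, while the proliferation markers lie at -1.18, -1.32 and -2.44.

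The RNA polymerase I group moved in both directions, with 3 of 6 genes lower and 1 higher, and held Ubtf, the largest change of the 40. Ubtf (chr11:102304560-102319742, minus strand) encodes UBF, which binds the ribosomal DNA repeats and keeps them open for transcription. Its level was 181, 176 and 179 CPM in WT replicates 1 to 3 and 109, 112 and 79.0 CPM in knockout replicates 1 to 3. No knockout library reached the lowest WT library, and on average 56.1% of the WT level was left. Its log2 fold change was -0.83 (SE 0.14; edgeR, adjusted p = 0.00766), and without knockout replicate 3 it was -0.69 (edgeR, adjusted p = 5.44e-06).

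Rrn3 (chr16:13780708-13814839, plus strand) encodes TIF-IA, the factor that makes RNA polymerase I competent to start. Rrn3 was measured at 86.2, 88.9 and 86.2 CPM in WT and at 118, 130 and 111 CPM in the knockout, with every knockout library above every WT library. It rose by 0.46 on the log2 scale (SE 0.078; edgeR, adjusted p = 0.00867), opposite in sign to that of Ubtf.

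Polr1c, a subunit shared by RNA polymerases I and III (chr17:46243920-46248054, minus strand), was at 64.5, 70.3 and 75.3 CPM in WT and at 47.1, 47.2 and 50.4 CPM in the knockout. Here knockout replicate 3 was the highest of the knockout libraries, and the genotypes did not overlap. Polr1c fell by 0.54 on the log2 scale (SE 0.083; edgeR, adjusted p = 0.0067), and by 0.57 without knockout replicate 3. Polr1b, the second-largest subunit of RNA polymerase I (chr2:129100995-129126594, plus strand), was at 46.8, 52.7 and 49.8 CPM in WT and at 37.4, 38.0 and 27.2 CPM in the knockout. It was lower in every knockout library, with a log2 fold change of -0.54 (SE 0.14; edgeR, adjusted p = 0.0275), and it lost its call without any 1 of the WT replicates (edgeR, adjusted p up to 0.0964). The largest subunit, Polr1a, and Polr1e did not pass, at -0.075 and -0.046 on the log2 scale, and Polr1a was at 119 and 122 CPM in knockout replicates 1 and 2 but at 80.3 CPM in replicate 3, against 111 to 114 CPM in WT.

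**Figure D3:**
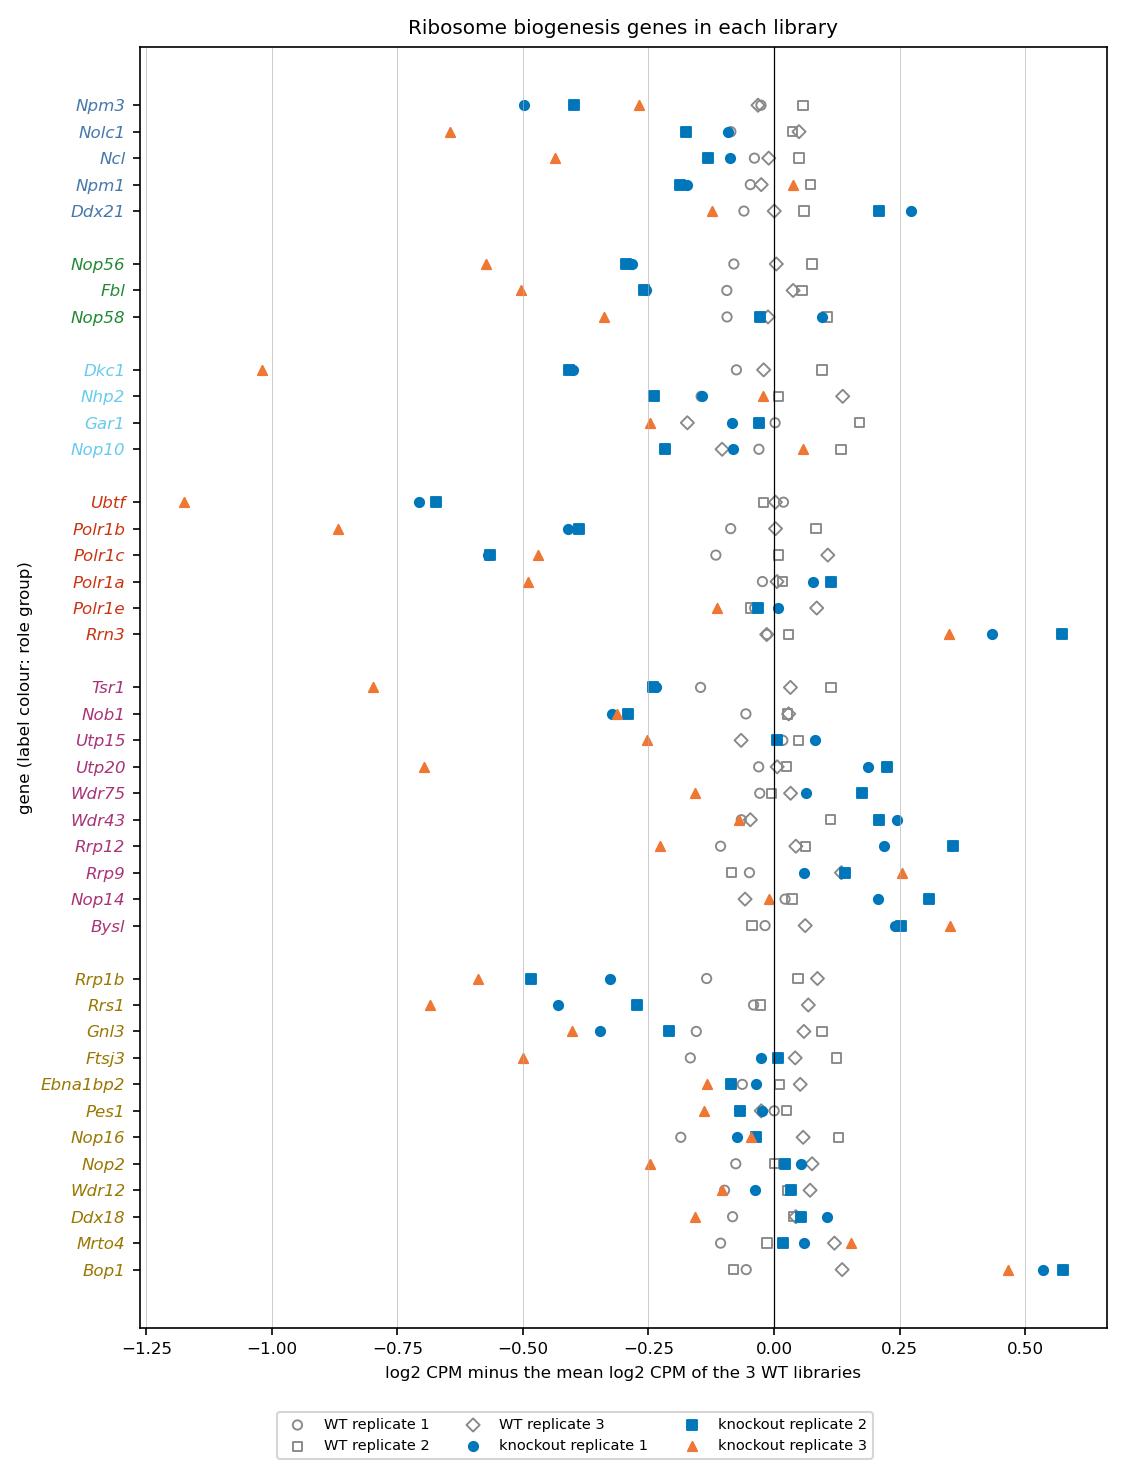
Log2 CPM of each of the 40 genes in each library minus the mean of the 3 WT libraries (x axis), grouped by role (y axis): open grey symbols are WT, filled blue symbols are knockout replicates 1 and 2, and orange triangles are knockout replicate 3. Ubtf, Polr1c, Rrn3 and Bop1 have all 3 knockout libraries well clear of WT, whereas for Utp20 and Polr1a the triangle lies left of WT and both blue symbols lie right of it.

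The promoter of Rrn3 is shown because, among the genes past an adjusted p of 0.01 that had a promoter in the table, it was the one that held the E-box letters CACGTG. The sequence is from RefSeq (GRCm38.p6, plus strand, chr16:13780449-13780698), covers the 250 bases before the start site and has each CACGTG in capitals, at -215 and -48 from the start.
Rrn3: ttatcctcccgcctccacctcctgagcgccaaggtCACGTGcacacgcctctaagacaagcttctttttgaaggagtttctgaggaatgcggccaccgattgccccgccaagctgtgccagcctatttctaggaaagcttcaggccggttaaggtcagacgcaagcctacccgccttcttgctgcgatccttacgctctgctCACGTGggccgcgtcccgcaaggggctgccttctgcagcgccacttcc

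Of the 40 genes, 35 had a promoter there (250 bases before to 50 after the start), and Npm1, Fbl, Rrp12, Bop1 and Rrs1 had none. CACGTG, which reads the same on both strands, was found in 6 of the 35 (17.1%), in 18.8% of 101 other genes of the pathway, in 11.6% of 10069 tested genes with a promoter and in 8.09% of all genes with one. It was held by 0 of the 9 genes called lower with a promoter, 1 of 2 called higher (Rrn3) and 5 of 24 that did not pass. These counts are too small to compare and were not tested. A match of letters is a description and not a binding site. The other 5 genes with the letters are shown with the bases around the match in capitals, to let their contexts be compared.
Nop2, chr6:125131811-125131840, plus strand: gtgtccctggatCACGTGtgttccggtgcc
Pes1, chr11:3963965-3963994, plus strand: ccctaggcagggCACGTGcgggaggaagta
Tsr1, chr11:74898092-74898121, plus strand: tcacttggtgcaCACGTGgactgcagaatg
Utp20, chr10:88826765-88826789, minus strand: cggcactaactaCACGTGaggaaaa
Wdr43, chr17:71616220-71616249, plus strand: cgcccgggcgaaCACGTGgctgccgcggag

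The Nop2 match lies 60 bases before the start (-60), and those of Pes1, Tsr1, Utp20 and Wdr43 lie after it, at 2, 24, 37 and 17. All 5 of these genes were among those that did not pass, with log2 fold changes between -0.41 (Tsr1) and 0.13 (Wdr43). Myc (chr15:61985391-61990374, plus strand), whose product binds E-boxes, was at 443, 527 and 535 CPM in WT and at 446, 390 and 479 CPM in the knockout. These groups overlapped, with a log2 fold change of -0.20 (SE 0.11; edgeR, adjusted p = 0.215), and reads of the viral and the endogenous gene were not separated.

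Box C/D snoRNPs guide the methylation of rRNA, and 2 of their 3 core genes on the list fell and none rose. Nop56 (chr2:130274430-130279313, plus strand), a scaffold of the particle, was at 155, 172 and 164 CPM in WT and at 135, 133 and 110 CPM in the knockout. Its log2 fold change was -0.38 (SE 0.099; edgeR, adjusted p = 0.0287). Fbl (chr7:28169710-28179269, plus strand) encodes fibrillarin, the methyltransferase itself, and was at 134, 149 and 147 CPM in WT and at 120, 120 and 101 CPM in the knockout. For Nop56 and Fbl the genotypes did not overlap and knockout replicate 3 was the lowest library. The log2 fold change of Fbl was -0.34 (SE 0.093; edgeR, adjusted p = 0.034), and without knockout replicate 3 it was -0.26 and that of Nop56 -0.29. Both calls were lost without any 1 of the WT replicates, and that of Fbl also without knockout replicate 2 (edgeR, adjusted p 0.0573 to 0.114). Nop58, the partner of Nop56 in the scaffold, was at -0.082 on the log2 scale (95% interval -0.37 to 0.21) and overlapped between the genotypes.

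Box H/ACA snoRNPs convert uridine to pseudouridine in rRNA, and 1 of the 4 core genes fell. Dkc1 (chrX:75095854-75109777, plus strand) encodes dyskerin, the pseudouridine synthase, which is also part of telomerase. Its level was 80.2, 90.3 and 83.3 CPM in WT and at 64.0, 63.6 and 41.6 CPM in the knockout. All knockout libraries lay below WT, replicate 3 by the most, and replicates 1 and 2 lay close together. Whether the difference in Ddx3y between the knockout libraries bears on Dkc1 was not tested. Dkc1 fell by 0.58 on the log2 scale (SE 0.17; edgeR, adjusted p = 0.039), and by 0.41 without knockout replicate 3 (edgeR, adjusted p = 0.000786). The call was lost without any 1 of the WT replicates (edgeR, adjusted p up to 0.125) and without knockout replicate 2 (edgeR, adjusted p = 0.05005).

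The partners of dyskerin did not pass the test. Nhp2, which binds the guide RNA, was at 61.2, 68.1 and 74.4 CPM in WT and at 61.2, 57.4 and 66.7 CPM in the knockout, with overlapping libraries and a log2 fold change of -0.14. Gar1 and Nop10, the small proteins that complete the particle, were at -0.12 and -0.080 on the log2 scale.

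Among the 5 nucleolar chaperones and helicases, 1 fell and none rose. Npm3 (chr19:45747734-45749591, minus strand), a histone chaperone of the nucleophosmin family, was at 42.4, 44.9 and 42.2 CPM in WT and at 30.5, 32.7 and 35.8 CPM in the knockout. It was lower in every knockout library, and knockout replicate 3 was the one closest to WT. Npm3 fell by 0.39 on the log2 scale (SE 0.086; edgeR, adjusted p = 0.0176), but the call was lost without any 1 of the WT replicates and without knockout replicate 2 (edgeR, adjusted p 0.0519 to 0.0721). Nolc1, a chaperone that gathers snoRNPs, was at 131, 143 and 144 CPM in WT and at 131, 123 and 89.0 CPM in the knockout. Its libraries did not overlap, by a narrow margin, and the log2 fold change of -0.29 did not pass (edgeR, adjusted p = 0.17). The RNA of Ncl, the gene of nucleolin, was at -0.21 on the log2 scale and that of Npm1, the gene of nucleophosmin, at -0.10. The RNA helicase gene Ddx21 was at 0.13, and none of these genes passed the test.

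Small subunit assembly factors were split, with 1 lower and 1 higher of 10 and a median log2 fold change of 0.083. Nob1 (chr8:107412486-107425051, minus strand), the nuclease that makes the last cut in the RNA of the small subunit, was at 51.4, 54.4 and 54.5 CPM in WT and at 42.7, 43.7 and 43.0 CPM in the knockout. Its knockout libraries lay close together and below WT, with a log2 fold change of -0.31 (SE 0.066; edgeR, adjusted p = 0.016). Without WT replicate 2 or 3 the call was lost (edgeR, adjusted p 0.0686 and 0.0708). Bysl (bystin), an earlier factor of the same subunit, rose by 0.28 on the log2 scale (SE 0.073; edgeR, adjusted p = 0.0276), with all knockout libraries above WT, but it did not pass when counts were scaled by library size alone (edgeR, adjusted p = 0.0558), nor without any 1 of the WT replicates or knockout replicate 2 (edgeR, adjusted p 0.0589 to 0.106). Tsr1, a late factor of this subunit, was at 61.9, 74.1 and 70.1 CPM in WT and at 58.2, 57.9 and 39.3 CPM in the knockout. The Tsr1 libraries did not overlap, and the log2 fold change of -0.41 did not pass (edgeR, adjusted p = 0.0985).

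For 4 genes of this group, Utp20, Nop14, Rrp12 and Wdr43, a call was gained without knockout replicate 3. Utp20, a large scaffold of the processome, was at 104, 108 and 107 CPM in WT, at 121 and 125 CPM in knockout replicates 1 and 2 and at 65.7 CPM in replicate 3. Utp20 stood at a log2 fold change of -0.037 over all libraries (edgeR, adjusted p = 0.911) and 0.21 without replicate 3 (edgeR, adjusted p = 0.00872). Nop14, Rrp12 and Wdr43 also had knockout replicates 1 and 2 above every WT library and replicate 3 below both, with log2 fold changes of 0.17, 0.14 and 0.13 that did not pass over all libraries and of 0.26, 0.29 and 0.23 that passed without it. Rrp9, a protein of the U3 particle, Wdr75 and Utp15 did not pass with or without it, at 0.15, 0.034 and -0.049 on the log2 scale.

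Large subunit assembly factors included 3 lower and 1 higher of 12. Bop1 (chr15:76452989-76477277, minus strand), part of the PeBoW complex with Pes1 and Wdr12, was at 64.4, 63.3 and 73.6 CPM in WT and at 97.1, 99.8 and 92.5 CPM in the knockout. It was higher in every knockout library and the knockout mean was 144% of WT. The log2 fold change was 0.52 (SE 0.084; edgeR, adjusted p = 0.00739), the largest rise among the 40 genes. The other members of the complex did not pass, with Pes1 at -0.077 (95% interval -0.23 to 0.077) and Wdr12 at -0.037 (95% interval -0.23 to 0.15) on the log2 scale.

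Rrp1b (chr17:32036100-32062865, plus strand), a nucleolar protein of the large subunit precursor, was at 51.9, 58.9 and 60.5 CPM in WT and at 45.4, 40.7 and 37.8 CPM in the knockout. The genotypes did not overlap, and the log2 fold change was -0.47 (SE 0.10; edgeR, adjusted p = 0.0162). Rrs1, which helps to bring the smallest rRNA into the subunit, fell by 0.45 on the log2 scale (SE 0.11; edgeR, adjusted p = 0.0254), and Gnl3 (nucleostemin), a GTP-binding protein of proliferating cells, fell by 0.32 (SE 0.096; edgeR, adjusted p = 0.0423). Both were lower in every knockout library, and Rrp1b, Rrs1 and Gnl3 each lost the call without WT replicate 2 and without WT replicate 3 (edgeR, adjusted p 0.0676 to 0.14). Rrs1 also lost it without WT replicate 1 or knockout replicate 1, and Gnl3 without knockout replicate 1 or 2 (edgeR, adjusted p 0.0543 to 0.103). The remaining 8 genes did not pass: Ftsj3, an rRNA methyltransferase, was at -0.16, Ebna1bp2 at -0.086, Nop16 at -0.059, the rRNA methyltransferase Nop2 at -0.052, the helicase Ddx18 at 0.0042 and Mrto4 at 0.075 on the log2 scale, beside Pes1 and Wdr12.

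Levels per length were compared in FPKM (fragments scaled by transcript length and by library total), which the authors computed. Npm1 was the most abundant of the 40 genes, with 913 ± 31.4 FPKM in WT and 845 ± 57.1 in the knockout (SD, n = 3). Ncl (131 ± 2.73), Fbl (129 ± 9.53) and Nop56 (121 ± 6.996) followed in WT, and these neighbours did not differ beyond their spread. The median of the 40 genes was 32.0 FPKM in WT and 30.7 in the knockout, and the lowest in WT was Rrp12 at 6.55 ± 0.55 FPKM. The first 3 places, Npm1, Ncl and Fbl, were held by the same genes in both genotypes.

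**Figure D4:**
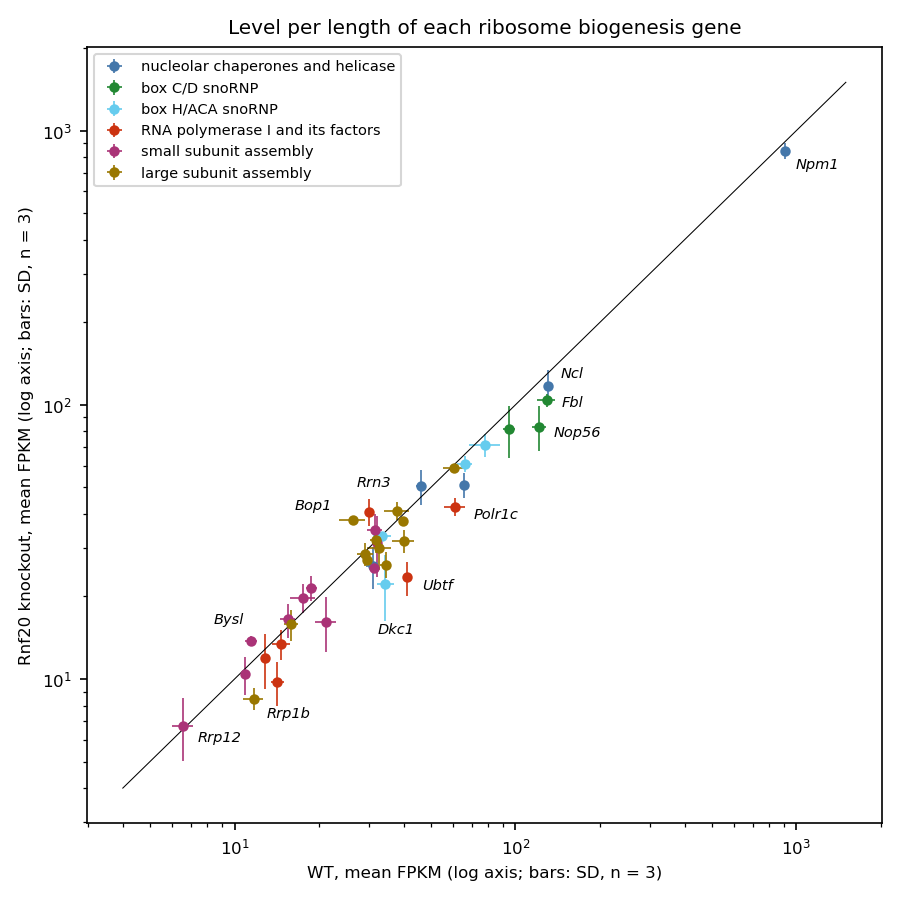
Mean FPKM of each of the 40 genes in WT (x axis) and in Rnf20 knockout cells (y axis), both on log axes, with bars for the SD of 3 libraries and a line of equal level. Npm1 stands alone at 913 FPKM in WT, and Ubtf, Dkc1 and Polr1c lie below the line and Bop1 and Rrn3 above it.

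Neighbouring and copied genes bear on some of these counts. Exons overlap those of a gene on the opposite strand for Bop1 (Mroh1), Bysl (Ccnd3), Nop56 (Idh3b), Dkc1 (Mpp1), Rrp1b (Hsf2bp), Gnl3 (Pbrm1) and Npm3 (Gm15491), and whether the counting used the strand is not given in the sources used here, so reads of these pairs may not be told apart. Ubtf, Polr1b, Polr1c and Rrn3 had no overlapping exons. Stretches of 100 bases that also occur in another gene made up 34.6% of Ddx18, 14.6% of Fbl, 12.7% of Npm1, 12.7% of Npm3 (shared with Npm3-ps1) and 11.6% of Nop56, and counts of these genes are uncertain to that extent. In all, 21 snoRNA genes lie inside 7 of the 40 genes: Nop56, Dkc1 and Gnl3, which fell, and Ncl, Nop58, Wdr43 and Tsr1, which did not pass.

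The rest of the pathway was read from a list of 127 further genes, of which 121 were in the table and tested and Riok2, Rrp36, Rsl24d1, Wdr74, Urb2 and Exosc6 were not analysed here. Of the 121, 11 (9.09%) fell and 11 (9.09%) rose, against 16.6% and 16.4% of all genes tested, and the median log2 fold change was -0.084. Scaled by library size alone, 21 fell and 8 rose, and the median log2 fold change of all genes tested moved to -0.060. The share of all genes called under this scaling is not given here, so 21 and 8 cannot be set beside a background. Without knockout replicate 3 the counts were 23 and 24 (background 24.2% and 23.9%). Over the fits with 1 of the other libraries left out, they were 4 to 9 lower and 2 to 6 higher (background 5.17% to 13.4% and 5.11% to 14.2%). In knockout replicate 3 the median difference from the WT mean was -0.19 in log2 CPM, against -0.049 and -0.026 in the other knockout libraries.

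The RNA exosome, which trims the ends of rRNA precursors, held the extremes of this list in both directions. Exosc8 was at 25.1, 26.2 and 25.5 CPM in WT and at 14.5, 12.6 and 10.7 CPM in the knockout, and its log2 fold change of -1.03 (SE 0.13; edgeR, adjusted p = 0.00394) also met the study's thresholds. Exosc9, another subunit of the same ring, was at 26.0, 24.1 and 22.2 CPM in WT and at 38.4, 36.9 and 39.4 CPM in the knockout, with a log2 fold change of 0.67 (SE 0.088; edgeR, adjusted p = 0.00474). Neither overlapped between the genotypes. The other leading genes that fell were Nop53 (listed under its older symbol Gltscr2) at -0.65, Emg1, an rRNA methyltransferase, at -0.56 and Ppan at -0.45 on the log2 scale, and those that rose were Pno1 at 0.42, Rbm34 at 0.38 and the helicase Dhx37 at 0.38.

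**Figure D5:**
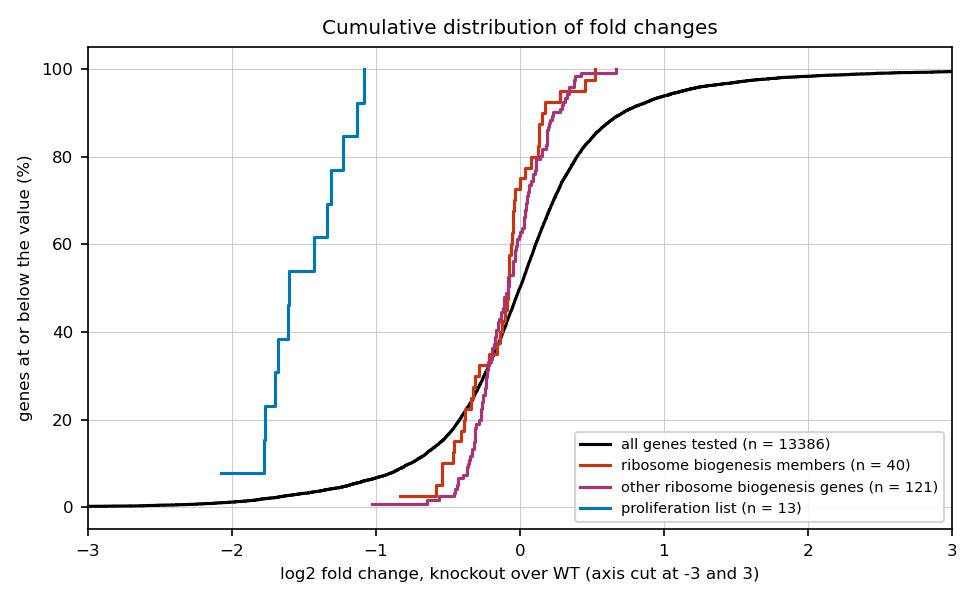
Share of genes (y axis, percent) at or below each log2 fold change, knockout over WT (x axis, shown from -3 to 3), for all 13386 genes tested, the 40 ribosome biogenesis genes, 121 other genes of the pathway and 13 proliferation markers. The curves of the 40 and of the 121 genes are steep and near 0 (medians -0.081 and -0.084), that of all genes is broader, and that of the proliferation markers lies far left (median -1.60). The lists were not matched in expression level.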

How the data were processed

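Bulk RNA-seq of 3 WT and 3 Rnf20 knockout libraries was used, grouped by the labels. The authors prepared TruSeq stranded mRNA libraries, sequenced paired ends, aligned them with HISAT2 2.1.0 to GRCm38/mm10 and deposited raw counts per gene. The counting program, its annotation and its strand setting are not given in the sources used here. The authors deposited FPKM values from Cufflinks 2.1.1 for 12633 genes, which served only for levels and the study's FPKM threshold. Columns with the authors' own log2 fold change and adjusted p-value (FDR) were deposited too and not used, and repeated counts differed from the count table in 0 cells. Of the 16982 genes, 425 are predicted loci.

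The genes, the lists of other pathway genes and markers, and the tests were chosen with earlier results of these data known. Counts were scaled by TMM, filtered with filterByExpr and compared by genotype alone with edgeR 4.0.16 (R 4.3.3) by the quasi-likelihood test, with Benjamini-Hochberg adjustment over 13386 genes. The SE is the absolute log2 fold change over the square root of F. CPM uses TMM-scaled library sizes and is a share of each library, so a change in RNA per cell is not seen. Log2 CPM adds a prior count of 2. At this depth 3 counts equal 0.142 to 0.143 CPM, which covers counting error only. The test was also run on simulated data in which only a small share of the genes changed. There it called most of the largest changes, a few genes that had not been changed, and none of the smallest changes. In the real libraries even smaller changes were called, such as Bysl at 0.28 and Nob1 at -0.31 on the log2 scale. The simulation therefore cannot give the sensitivity of the test on these libraries. A gene that did not pass is not shown to be unchanged.

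Named genes were all 40, with values in every library for the 2 largest changes of each role group and for every gene at an adjusted p under 0.01, and the 4 largest changes in each direction among called genes of the other pathway list. Values were also given for some further genes, Polr1a and Utp20, after they were seen. Positions are from GENCODE release M21 (GRCm38) and promoters from RefSeq (GRCm38.p6). No 2 libraries of a genotype were alike within sampling noise. The alternatives were RLE factors, library size only, DESeq2 1.42.0 (Wald test), no filter, CPM over 1 in at least 3 libraries, an adjusted p under 0.01, a replicate block, and each library left out.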

Additional observations from a re-analysis of the deposited data

How the results depend on the processing

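With RLE factors, DESeq2, no filter or CPM over 1, the counts of 11 lower and 3 higher genes were the same. For these settings the share of all genes called is not given here, so the equal counts cannot be set beside a background. Except with RLE factors, the number of genes tested also differed from that of the main fit. An adjusted p under 0.01 gave 2 lower genes, and 4 lower and 2 higher among the other pathway genes. Library size only gave 21 lower other pathway genes, with the median of all genes tested at -0.060. The share of all genes called with library size only is not given here. With each library left out in turn, 2 to 13 of the 40 genes were lower and 2 to 8 higher, and 4 to 23 and 2 to 24 of the other pathway genes, and the median of the 40 ran from -0.124 to -0.052. Utp20 reversed: its log2 fold change of -0.037 ran from -0.19 without knockout replicate 2 to 0.21 without knockout replicate 3, the library with the lowest Utp20 level. The cause of the other moves was not tested, and fits with 5 libraries have fewer degrees of freedom. The replicate block gave 5 lower and 2 higher of the 40 genes and 5 lower and 6 higher of the other pathway genes. The share of all genes called under the block is not given here. Correlations of deviations between replicates with the same number (-0.066, 0.037 and 0.011) lay within those of different numbers (-0.069 to 0.072). No pairing by number was seen, but knockout replicate 3 stood apart, so these correlations cannot exclude one. The lowest level of the 40 genes in any library was 23.1 CPM (Polr1e, knockout replicate 3), far above the floor of 3 counts.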
